A study of Mus musculus with 19 samples.

Results

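Trp63, Ripk4, Klf4, Klf5, Grhl3, Elf3, Elf5, Tfap2a and Tfap2c are regulators of stratified epithelium, the layered tissue that covers skin and lines parts of the urogenital tract. They were chosen by name, with earlier results of these data known, and their probe sets were found by gene symbol in the probe annotation of the array. They make up 9 of the 18193 genes that probe sets with a single symbol name. The annotation gives them 21 probe sets, and all 21 passed the filter on low values (an intensity over 20 in at least 1 sample). Each gene was read from its probe set with the highest mean log2 intensity over the 19 samples, and the other probe sets are given beside it.

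RNA was hybridised to 19 MOE430 2.0 arrays, with 6 samples of urogenital sinus epithelium (UGE), 5 of urogenital sinus mesenchyme (UGM) and 4 each of epidermis and dermis. All of them were pools of tissue from C57BL/6 mouse embryos at embryonic day 16, with no mutation or drug in any group. The UGE and UGM, the epithelium and the stroma from which the prostate forms, were parted with trypsin. The epidermis and dermis came from back skin of the same embryos, held in dispase overnight in the cold and then peeled apart by hand. Site and separation method therefore cannot be told apart, and pools of different groups can share embryos. A pool averages all cells of a tissue layer, so fewer cells of a type and less RNA per cell cannot be told apart either.

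p63, the product of Trp63, is a transcription factor of the p53 family that maintains the basal cells of stratified epithelia, and mice without it fail to form a stratified epidermis or a prostate. The kinase Ripk4 and the Grainyhead factor Grhl3 are needed for the epidermal barrier in mice, Klf4 acts in the barrier-forming upper layers, and Klf5 is known from proliferating epithelial cells. Elf3 and Elf5 are ETS factors largely limited to epithelia, and Tfap2a and Tfap2c encode AP-2 factors of the surface ectoderm, of which Tfap2a also serves the neural crest.

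The values were linear intensities that the authors had normalized between arrays, and they were put on the log2 scale here. Array medians ran between 76.2 and 81.6, the lower quartile of an array lay between 4.70 and 4.92 on the log2 scale, and 4 to 6 pools a group limited the precision. The labelled tissues carried their markers. The median log2 intensity of 22 measured genes of epithelial identity was 11.57 to 11.72 in UGE, against 6.98 to 8.001 in UGM, and 10.81 to 11.21 in epidermis, against 7.94 to 9.87 in dermis. For 24 mesenchymal genes it was 6.48 to 10.05 in UGE, against 12.15 to 12.29 in UGM, and 9.78 to 10.98 in epidermis, against 12.48 to 12.95 in dermis. UGE replicates 2 and 3 were the pair at 10.05. Differences are given as log2 fold changes with their standard errors (SE) from limma, and a gene is called higher or lower at a Benjamini-Hochberg adjusted p under 0.01 over all 41549 tested probe sets together with a fold change over 2.

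Promoter windows were on hand for 5 of the 9 genes, and 4 windows are shown, those of the genes whose levels diverged between the epithelia (Klf4, Elf3) and beside them Grhl3 and Elf5. All 4 carry the motif of the family that Klf4 and Klf5 belong to, as does the second Tfap2a window, with 4 matches, which is not shown. The first windows of Elf5 and Tfap2a, not shown either, hold no match. Each runs 5′ to 3′ from 250 bases before to 50 bases after a transcription start in RefSeq, build GRCm38.p6, and the Elf5 window is that of a start inside the gene. Capitals mark matches to the KLF/SP motif CCNCNCCC on either strand, where overlapping matches run together. Klf4 lies at chr4:55532426-55532725 (minus strand), Grhl3 at chr4:135573583-135573882 (minus strand), Elf3 at chr1:135258423-135258722 (minus strand) and Elf5, in the second of its windows, at chr2:103423818-103424117 (plus strand).
Klf4: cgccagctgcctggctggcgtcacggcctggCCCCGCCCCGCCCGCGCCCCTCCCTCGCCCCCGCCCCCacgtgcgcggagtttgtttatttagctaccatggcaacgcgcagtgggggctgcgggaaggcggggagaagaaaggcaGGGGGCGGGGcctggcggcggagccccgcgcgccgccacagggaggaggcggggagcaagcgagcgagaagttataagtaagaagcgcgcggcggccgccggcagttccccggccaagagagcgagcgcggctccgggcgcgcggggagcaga
Grhl3: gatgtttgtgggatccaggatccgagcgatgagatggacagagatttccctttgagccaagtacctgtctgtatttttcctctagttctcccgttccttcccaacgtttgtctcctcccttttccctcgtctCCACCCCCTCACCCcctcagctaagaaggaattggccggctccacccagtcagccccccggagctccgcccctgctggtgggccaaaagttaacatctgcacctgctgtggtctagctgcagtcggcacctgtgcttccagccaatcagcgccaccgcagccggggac
Elf3: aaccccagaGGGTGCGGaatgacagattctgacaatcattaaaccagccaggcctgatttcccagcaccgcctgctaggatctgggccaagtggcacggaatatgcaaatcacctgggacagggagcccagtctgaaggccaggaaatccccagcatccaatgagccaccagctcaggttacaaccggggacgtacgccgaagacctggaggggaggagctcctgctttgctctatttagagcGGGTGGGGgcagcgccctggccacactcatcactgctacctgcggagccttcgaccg
Elf5: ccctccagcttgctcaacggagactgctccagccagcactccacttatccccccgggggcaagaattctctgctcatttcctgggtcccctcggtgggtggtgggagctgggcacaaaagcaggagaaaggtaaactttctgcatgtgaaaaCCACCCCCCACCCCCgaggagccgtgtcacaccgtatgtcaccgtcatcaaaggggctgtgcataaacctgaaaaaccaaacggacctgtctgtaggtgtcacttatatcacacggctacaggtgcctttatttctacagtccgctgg

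The Klf4 window held 9 KLF/SP matches and a GC share of 74.33%, above 95.6% of the 32851 windows of all genes. The Grhl3 and Elf3 windows held 2 matches each and the Elf5 window 3. Of the 7 windows of these genes, 5 held the KLF/SP motif, against 49.469% of all windows. The AP-2 motif GCCNNNGGC stood in 1 of 7, in Klf4, against 16.59% of all windows. The Grainyhead motif AACNNGTT stood in 0 of 7, against 4.204%. The ETS motif GGAAG stood in 5 of 7, against 71.413%, and a loose pattern of the p53 family in 7 of 7, against 70.202%. Both strands were searched for each motif, and a match is a description of letters only.

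Of the 9 regulators, 8 were called higher in UGE than in UGM, where 6.75% of the 17360 genes tested were, and 8 were called higher in epidermis than in dermis, where 5.84% of genes were. The exceptions were Klf4 in the urogenital sinus and Elf3 in the skin. The median difference over the 9 genes was 4.51 on the log2 scale for UGE minus UGM and 1.90 for epidermis minus dermis, against 0.02 and 0.01 over all genes. For the 22 genes of epithelial identity the same medians were 4.61 and 2.01.

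**Figure D1:**
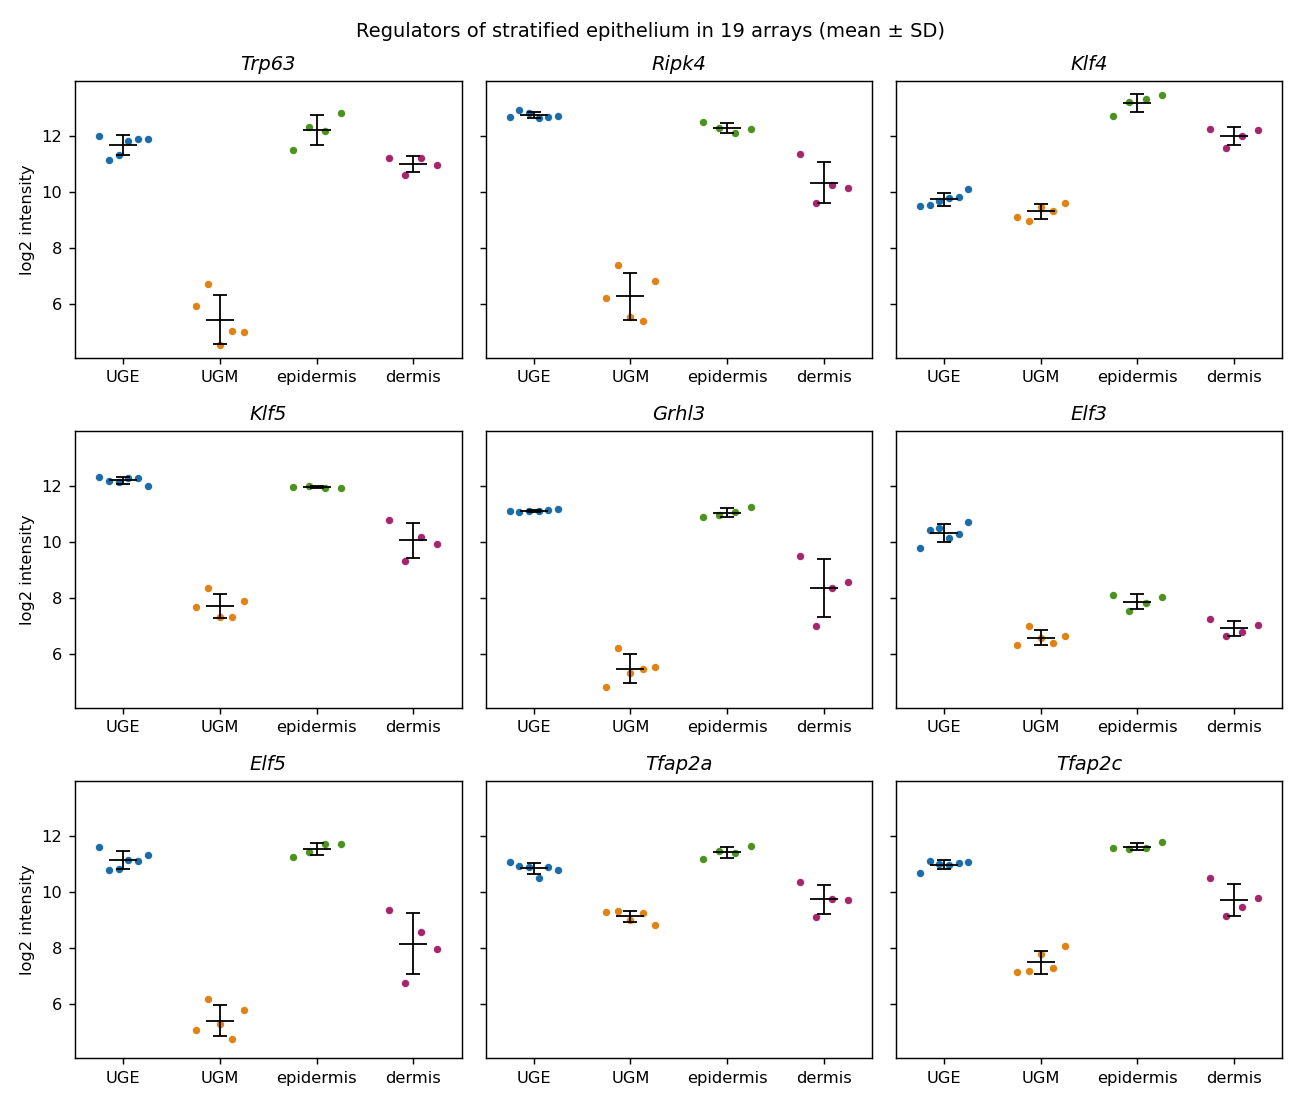
Log2 intensity (vertical axis) of the 9 regulators in UGE, UGM, epidermis and dermis (horizontal axis), with 1 point per pool and bars at the mean ± SD. UGE lay far above UGM for every gene but Klf4 and, by a smaller step, Tfap2a, and the dermis mean lay above the UGM mean for all 9 genes.

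Trp63, on chromosome 16 (25683763 to 25892088), was a strong epithelial signal in both sites, and it was also high in dermis. UGE pools had a lowest, median and highest log2 intensity of 11.14, 11.87 and 12.005, against 5.90, 6.71, 4.52, 5.03 and 5.001 in UGM replicates 1 to 5. The groups were far apart, and UGM replicate 3 lay below the lower quartile of the arrays. Epidermis replicates 1 to 4 had 11.51, 12.33, 12.20 and 12.81, against 11.20, 10.62, 11.21 and 10.97 in dermis replicates 1 to 4. All epidermis pools lay above all dermis pools. The log2 fold change was 6.25 ± 0.34 for UGE minus UGM (76.2-fold, adjusted p = 2.72e-08) and 1.22 ± 0.25 for epidermis minus dermis (2.32-fold, adjusted p = 0.00402). The skin call was lost without epidermis replicate 2 (1.17, adjusted p = 0.0149) or 3 (1.22, adjusted p = 0.0122), and without dermis replicate 2 (1.09, adjusted p = 0.0149) or 4 (1.20, adjusted p = 0.0132). In the order epidermis, UGE, dermis, UGM, only the last step was called, and both the epidermis and UGE ranges and the UGE and dermis ranges overlapped.

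Ripk4, on chromosome 16 (97741933 to 97763779), had a UGE minus UGM difference as wide as that of Trp63 within their errors, on the probe set read here. UGE pools ran at 12.64, 12.72 and 12.94 (lowest, median, highest), against 6.22, 7.37, 5.51, 5.37 and 6.83 in UGM replicates 1 to 5. Epidermis replicates had 12.50, 12.30, 12.10 and 12.25, against 11.35, 9.61, 10.24 and 10.15 in dermis. Neither pair of groups overlapped, and dermis replicate 1 was the dermis pool nearest to epidermis. The differences were 6.50 ± 0.31 (90.6-fold, adjusted p = 7.7e-09) in the urogenital sinus and 1.95 ± 0.30 (3.87-fold, adjusted p = 0.000766) in the skin. Its levels in UGE and epidermis differed by 0.47 ± 0.33, which was not called (adjusted p = 0.289), although the ranges did not overlap. This SE came from the fit of all 4 groups. It thus took in the spread of UGM (SD 0.86) and dermis (SD 0.73), wider than that of UGE (SD 0.11) and epidermis (SD 0.16).

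Grhl3, on chromosome 4 (135541887 to 135573632), was nearly even over the 6 UGE pools. They lay at 11.07, 11.12 and 11.18 (lowest, median, highest), against 4.82, 6.22, 5.32, 5.47 and 5.53 in UGM. Epidermis replicates had 10.90, 10.98, 11.09 and 11.26, against 9.51, 7.01, 8.36 and 8.58 in dermis. The spread in dermis (SD 1.03, n = 4) was far wider than in UGE (SD 0.04, n = 6), with dermis replicate 1 at the top and replicate 2 at the bottom. UGE exceeded UGM by 5.65 ± 0.19 (50.3-fold, adjusted p = 5.03e-10), and epidermis exceeded dermis by 2.69 ± 0.42 (6.45-fold, adjusted p = 0.000729).

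The Krüppel-like factors parted ways. Klf5, on chromosome 14 (99298691 to 99313412), had 12.02, 12.24 and 12.32 in UGE (lowest, median, highest), against 7.68, 8.37, 7.31, 7.31 and 7.88 in UGM. Its epidermis pools had 11.98, 12.0025, 11.95 and 11.93, against 10.79, 9.32, 10.19 and 9.95 in dermis. On the probe set read here Klf5 was thus high and even in both epithelia, with no overlap with either mesenchyme. The differences were 4.51 ± 0.17 (22.7-fold, adjusted p = 1.49e-09) in the urogenital sinus and 1.90 ± 0.25 (3.74-fold, adjusted p = 0.000299) in the skin.

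Klf4, on chromosome 4 (55527137 to 55532475), was set apart by site more than by compartment. UGE pools had 9.48, 9.72 and 10.12 (lowest, median, highest), against 9.12, 8.96, 9.48, 9.34 and 9.61 in UGM, and these groups overlapped. Epidermis pools had 12.72, 13.23, 13.34 and 13.49, against 12.26, 11.57, 11.99 and 12.21 in dermis, with no overlap. Every skin pool, dermis included, lay above every urogenital sinus pool. The compartment difference was 0.43 ± 0.14 in the urogenital sinus (adjusted p = 0.032, not called) and 1.19 ± 0.20 in the skin (2.27-fold, adjusted p = 0.00112).

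Klf4 was lower in UGE than in epidermis, with a log2 fold change of -3.46 ± 0.17 (11.0-fold, adjusted p = 1.27e-11), and lower in UGM than in dermis, with -2.70 ± 0.18 (6.52-fold, adjusted p = 7.25e-10). Immediate early and stress genes, which are known to respond to tissue handling, moved with site as well. Their median log2 intensity over 21 genes was 8.13 to 8.90 in UGE, against 8.84 to 10.11 in epidermis, and 7.86 to 8.63 in UGM, against 9.38 to 10.09 in dermis. Epidermis replicate 4 was the pool at 10.11, and epidermis replicates 1 to 3 had 8.96, 8.84 and 8.86, near the highest UGE pools. Of the 21 genes, 10 were called lower and 1 higher in UGE than in epidermis, and 12 were called lower in UGM than in dermis. Their part in the Klf4 difference was not tested. The genes of epidermal differentiation, which mark the upper layers of the skin, had a median over 16 genes of 6.65 to 7.27 in UGE, against 10.82 to 11.57 in epidermis.

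Elf3, on chromosome 1 (135253574 to 135258472), had the opposite pattern, being high in UGE alone. Its UGE pools had 9.79, 10.37 and 10.72 (lowest, median, highest), against 6.32, 6.98, 6.58, 6.40 and 6.62 in UGM. Epidermis pools had 8.11, 7.53, 7.82 and 8.02, against 7.25, 6.64, 6.77 and 7.03 in dermis. UGE overlapped with no other group, and dermis overlapped with UGM. The difference was 3.73 ± 0.17 in the urogenital sinus (13.3-fold, adjusted p = 4.58e-09). In the skin it was 0.95 ± 0.17, which passed the p threshold (adjusted p = 0.00163) but fell short of 2-fold, and it passed both without epidermis replicate 2 (1.06) or without dermis replicate 1 (1.06). UGE lay 2.44 ± 0.18 above epidermis (5.44-fold, adjusted p = 1.86e-09).

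Elf5, on chromosome 2 (103412098 to 103450989), was high in both epithelia. UGE pools had 10.81, 11.13 and 11.64 (lowest, median, highest), against 5.06, 6.16, 5.29, 4.73 and 5.77 in UGM. Epidermis pools had 11.28, 11.44, 11.72 and 11.72, against 9.37, 6.75, 8.58 and 7.95 in dermis. Dermis was widely spread, highest in replicate 1 and lowest in replicate 2, and still did not reach epidermis. The differences were 5.75 ± 0.24 (53.7-fold, adjusted p = 2.96e-09) and 3.37 ± 0.45 (10.4-fold, adjusted p = 0.000296).

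Both AP-2 genes were called higher in the epithelium of each site on the probe sets read here. Tfap2a, on chromosome 13 (40713802 to 40738238), had 10.52, 10.91 and 11.07 in UGE (lowest, median, highest), against 9.29, 9.32, 8.997, 9.25 and 8.84 in UGM. Its epidermis pools had 11.20, 11.49, 11.39 and 11.66, against 10.39, 9.11, 9.77 and 9.73 in dermis. Tfap2a was the 1 gene with nearly the same step in both sites, 1.72 ± 0.12 (3.30-fold, adjusted p = 2.33e-07) for UGE minus UGM and 1.69 ± 0.23 (3.22-fold, adjusted p = 0.000368) for epidermis minus dermis. UGM kept a level of 9.14 ± 0.21 (SD, n = 5) for this gene, and the dermis and UGM ranges overlapped. Genes of Schwann cells and the neural crest, a lineage in which Tfap2a is known to act, had a median over 8 genes of 5.10 to 5.64 in UGE, against 8.95 to 9.42 in UGM, and 6.67 to 7.08 in epidermis, against 8.62 to 9.05 in dermis. Their part in the stromal level of Tfap2a was not tested.

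Tfap2c, on chromosome 2 (172545678 to 172558622), had 10.68, 11.04 and 11.11 in UGE (lowest, median, highest), against 7.16, 7.18, 7.77, 7.28 and 8.07 in UGM. Epidermis pools had 11.59, 11.55, 11.60 and 11.82, against 10.50, 9.13, 9.48 and 9.79 in dermis. On the probe set read here no 2 groups overlapped, and the order was epidermis, UGE, dermis, UGM. The compartment differences were 3.50 ± 0.17 (11.3-fold, adjusted p = 8.23e-09) in the urogenital sinus and 1.91 ± 0.25 (3.76-fold, adjusted p = 0.000248) in the skin.

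**Figure D2:**
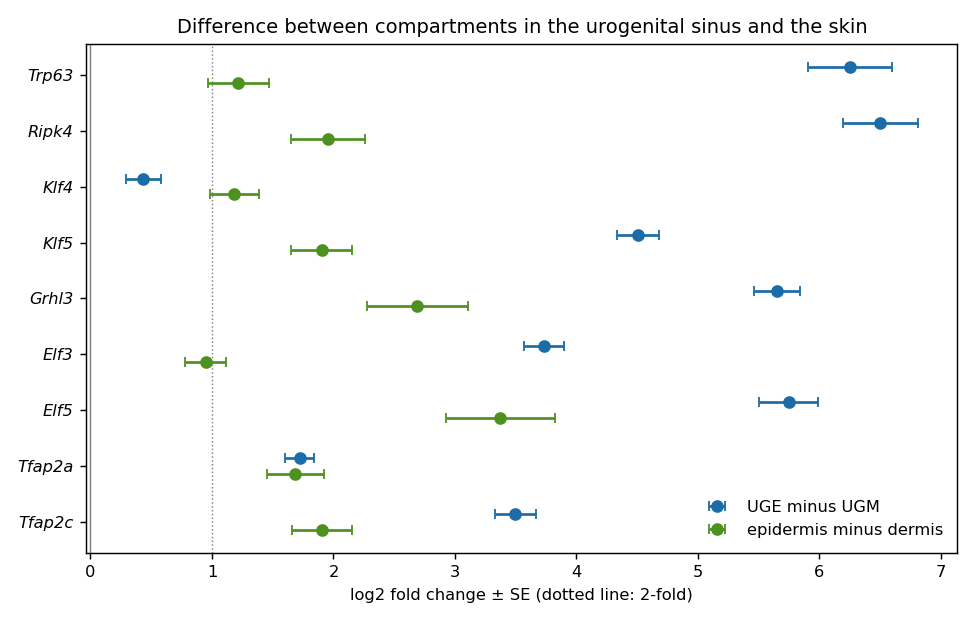
Log2 fold change ± SE (horizontal axis) of each regulator for UGE minus UGM (blue) and epidermis minus dermis (green), with 2-fold as a dotted line. On the probe sets read here Trp63 and Ripk4 had the widest gaps between sites (6.25 against 1.22, and 6.50 against 1.95), Tfap2a the narrowest (1.72 against 1.69), and Klf4 was the 1 gene with the larger step in the skin.

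The difference between the sites was tested as an interaction, UGE minus UGM less epidermis minus dermis, in 1 fit of all 4 groups. Of the 9 genes, 7 were called higher, where 7.53% of the 17360 genes were, and none lower, where 5.41% were. The interaction was 5.04 ± 0.48 for Trp63 (adjusted p = 2.61e-07), 4.55 ± 0.48 for Ripk4 (adjusted p = 8.3e-07), 2.96 ± 0.46 for Grhl3 (adjusted p = 8.29e-05), 2.79 ± 0.25 for Elf3 (adjusted p = 1.26e-07) and 2.60 ± 0.32 for Klf5 (adjusted p = 5.27e-06). For Elf5 it was 2.37 ± 0.52 (adjusted p = 0.00246), and for Tfap2c 1.59 ± 0.31 (adjusted p = 0.000785). With the replicate number as a block Elf5 was no longer called (2.33, adjusted p = 0.0122). The interaction was not called for Tfap2a (0.03 ± 0.26, adjusted p = 0.959) or Klf4, which ran the other way (-0.75 ± 0.25, adjusted p = 0.0405). The median interaction of the 9 genes was 2.60, against 0.04 over all genes and 2.59 over the genes of epithelial identity, of which 17 of 22 were called higher. The median of the regulators thus stood beside that of the epithelial genes.

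Between the epithelia, most of the 9 regulators were not called. The SEs of this comparison came from the fit of all 4 groups, so the spread of UGM and dermis entered them too. Elf3 alone was higher in UGE than in epidermis, where 8.28% of genes were, and Klf4 alone was lower, where 6.12% were. The other 7 differed by 0.07 to 0.65 on the log2 scale in either direction, with the largest of these differences for Tfap2c (-0.65 ± 0.21, adjusted p = 0.0229), Tfap2a (-0.58 ± 0.18, adjusted p = 0.0163) and Trp63 (-0.53 ± 0.34, adjusted p = 0.235). Between the stromal layers 7 of the 9 were lower in UGM than in dermis, where 7% of genes were, among them Trp63 (-5.57 ± 0.35, adjusted p = 3.14e-10) and Ripk4 (-4.08 ± 0.34, adjusted p = 2.15e-08). On other probe sets these were smaller, -1.40 ± 0.35 for Trp63 on 1459581_at (adjusted p = 0.00425) and -2.32 ± 0.23 for Ripk4 on 1418487_at (adjusted p = 1.69e-07). The 2 not called were Tfap2a (-0.61 ± 0.19, adjusted p = 0.0148) and Elf3 (-0.34 ± 0.18, adjusted p = 0.156). The median over the 9 was -2.70, against -0.07 over all genes and -1.43 over the epithelial identity genes, of which 13 were lower and 3 higher in UGM.

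Dermis pools carried epithelial transcripts to unequal degrees, and most of the 9 regulators had their highest and lowest dermis pools where these transcripts did. Over dermis replicates 1 to 4 the median of the epithelial identity genes was 9.87, 7.94, 8.89 and 8.72, and that of the epidermal differentiation genes 10.01, 7.46, 8.08 and 9.32. Dermis replicate 1 was the highest dermis pool for 8 of the 9 regulators, and replicate 2 the lowest for 9 of 9. The exception was Trp63, with 11.20 in replicate 1 and 11.21 in replicate 3. Among UGM pools, replicate 2 had the highest epithelial median (8.001) and was the highest for 7 of the 9. The part of epithelial cells in the stromal levels was not tested. Without dermis replicate 1 all 9 regulators were called higher in epidermis than in dermis, Grhl3 at 3.07, Elf5 at 3.78 and Ripk4 at 2.29, and without dermis replicate 2 the count was 7, with Trp63 not called. The 7 calls between UGM and dermis were made again without either pool, with Trp63 at -5.50 without dermis replicate 1 and -5.69 without replicate 2. Without UGM replicate 2 the 8 calls for UGE minus UGM were made as well.

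The basal keratins that p63 is known to maintain were high in dermis too. The median of Krt5, Krt14 and Krt15 was 13.40 to 13.80 in epidermis, against 12.51 to 13.28 in dermis, and 12.59 to 13.40 in UGE, against 6.50 to 8.78 in UGM. Krt15 was called higher in epidermis than in dermis (1.19), and Krt5 (0.57) and Krt14 (0.69) were not.

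**Figure D3:**
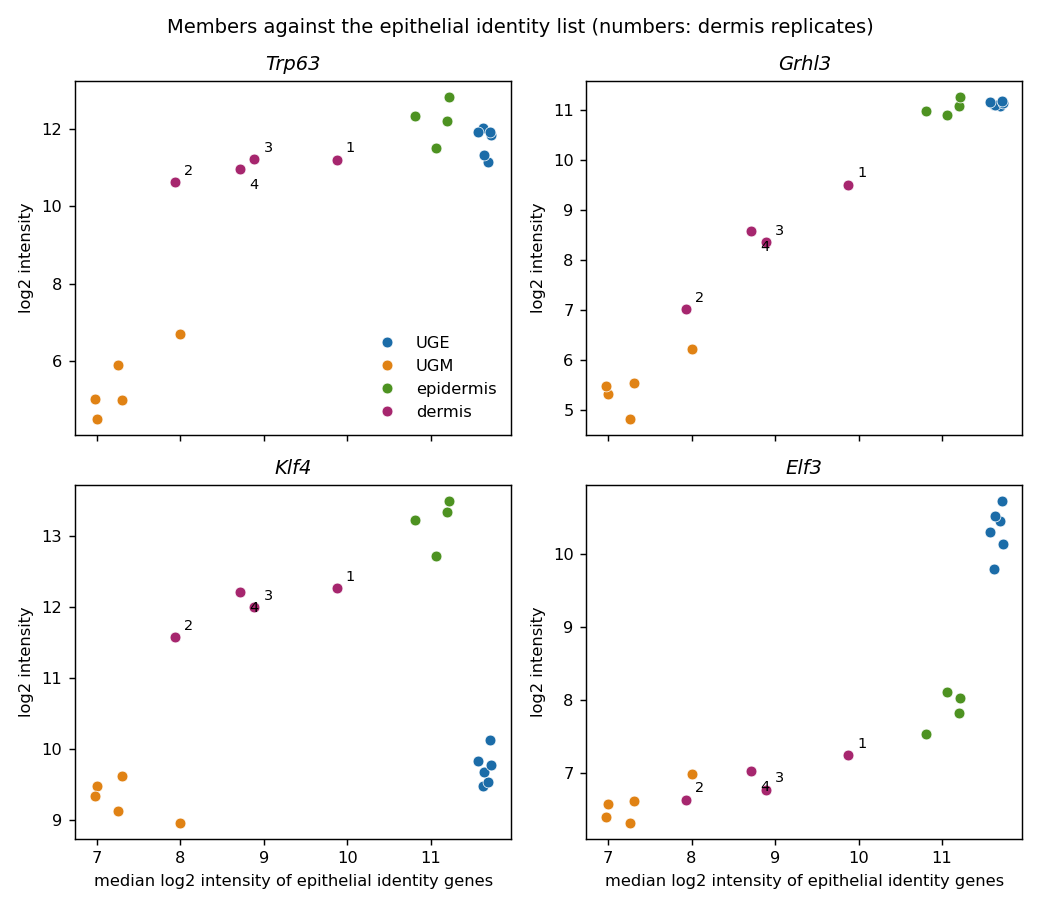
Log2 intensity of Trp63, Grhl3, Klf4 and Elf3 (vertical axes) in each pool against the median log2 intensity of the epithelial identity genes in that pool (horizontal axis), coloured by group, with dermis pools numbered. Grhl3 followed the epithelial median from group to group. Within dermis both were highest in replicate 1 and lowest in replicate 2, though the order of the other pools differed. Trp63 stayed at 10.62 to 11.21 in dermis. Klf4 split by site, and Elf3 was high in UGE alone.

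Other probe sets of the same genes did not all give the same answer, which matters most for Trp63. Its probe set 1418158_at gave the values above, whereas 1459581_at had 8.81, 10.06 and 10.51 in UGE (lowest, median, highest), against 5.60, 6.34, 5.60, 5.88 and 6.78 in UGM. In epidermis it had 9.34, 10.33, 10.47 and 9.79, against 7.82, 7.42, 7.73 and 6.77 in dermis. On this probe set dermis lay clear of both epithelia. The differences were 3.74 ± 0.33 for UGE minus UGM (adjusted p = 2.11e-06) and 2.55 ± 0.29 for epidermis minus dermis (adjusted p = 0.000112), and the interaction, 1.20 ± 0.49, was not called (adjusted p = 0.106). The remaining pair, 1451876_a_at and 1452027_a_at, stayed at group means of 4.10 to 5.63 and was not called between compartments of either site. The transcripts of Trp63 that each probe set reads were not determined.

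**Figure D4:**
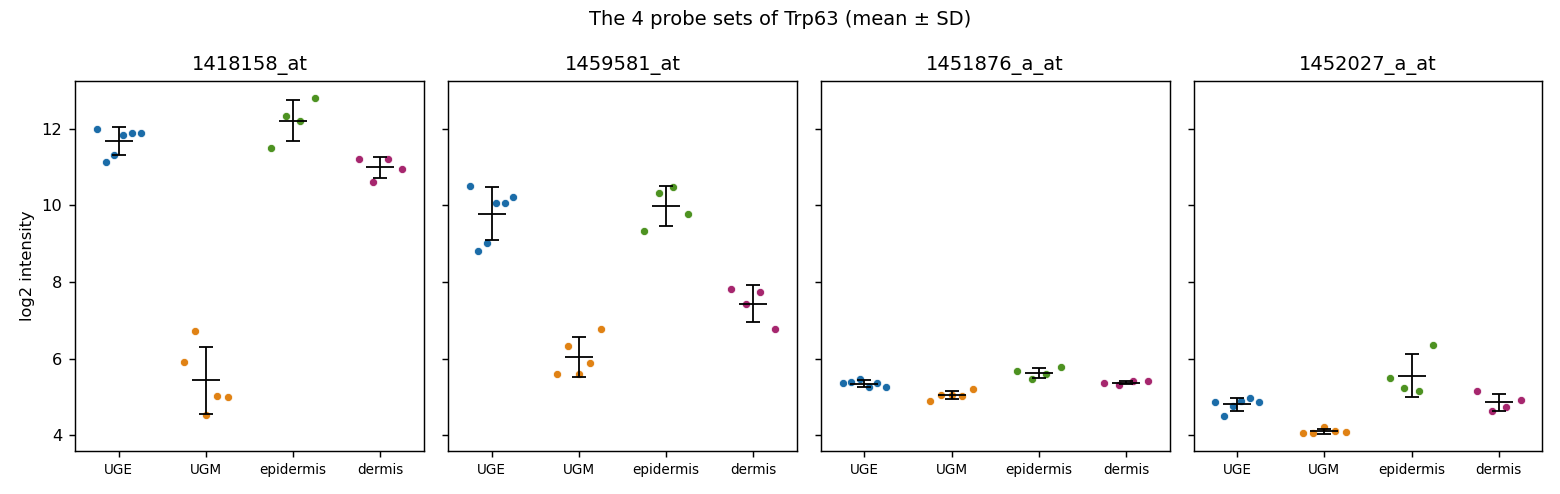
Log2 intensity (vertical axis) of the 4 probe sets of Trp63 in the 19 pools by group (horizontal axis), with bars at the mean ± SD. Dermis is near epidermis on 1418158_at (11.00 against a mean of 12.21 in epidermis) and well below it on 1459581_at (7.44 against 9.98), and 1451876_a_at and 1452027_a_at are low throughout.

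Ripk4, Klf4 and Klf5 each had a second probe set with differences of the same direction. Ripk4 1418487_at gave 4.70 ± 0.13 for UGE minus UGM and 1.78 ± 0.29 for epidermis minus dermis, with an interaction of 2.92 ± 0.32 (adjusted p = 1.27e-06). Klf5 1451739_at gave 4.90 ± 0.18 and 2.93 ± 0.26, with an interaction of 1.97 ± 0.33 (adjusted p = 0.00019), and 1430255_at was low in every group. Epidermis pools were less even on Klf5 1451739_at, at 9.61 to 10.96. Klf4 1417395_at gave 0.55 ± 0.08 and 1.55 ± 0.17, and was lower in UGE than in epidermis (-3.82 ± 0.12, adjusted p = 3.65e-14). On the second Klf4 probe set the compartment difference of the urogenital sinus (adjusted p = 0.000144) and the interaction (-0.995 ± 0.18, adjusted p = 0.000327) passed the p threshold but not 2-fold.

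The AP-2 genes were less even between probe sets. Tfap2c was called in the interaction on 1436392_s_at, but not on 1418147_at (0.53 ± 0.26, adjusted p = 0.187) or 1448977_at (-0.50 ± 0.36, adjusted p = 0.417). On both of these the UGE and dermis ranges overlapped, and UGE minus dermis was not called (0.86 ± 0.18 and 0.33 ± 0.25). Tfap2c was also called lower in UGE than in epidermis on 1448977_at (-1.47 ± 0.25, adjusted p = 0.0001), and Tfap2a on 1426048_s_at (-1.09 ± 0.19, adjusted p = 0.000151) and 1421995_at (-1.02 ± 0.14, adjusted p = 1.3e-05). Tfap2a 1421995_at was low, with group means of 5.24 to 6.26. It was not called for UGE minus UGM (-0.06 ± 0.11, adjusted p = 0.691) or epidermis minus dermis (0.53 ± 0.18, adjusted p = 0.0452). The second Elf5 probe set, 1419556_at, stayed at group means of 4.85 to 5.93 and was not called in the interaction (-0.67 ± 0.19, adjusted p = 0.0181). Counted over all 21 probe sets, 14 were called higher in UGE than in UGM (5.85% of all probe sets), 15 in epidermis than in dermis (6.07%), and 9 in the interaction (5.15%).

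Relatives of the 9 regulators were read in the same way, beginning with the Grainyhead family. Grhl1, a desmosomal gene activator of the epidermis, exceeded its UGM level in UGE by 5.07 ± 0.27 (adjusted p = 1.84e-08) and its dermis level in epidermis by 2.73 ± 0.48 (adjusted p = 0.00148). Grhl2, which maintains epithelial junctions, was higher by 4.57 ± 0.13 (adjusted p = 1.7e-10) and 1.31 ± 0.15 (adjusted p = 0.000139). All 3 Grhl genes were thus called in both sites. Between the epithelia they split. Grhl1 was lower in UGE than in epidermis (-2.07 ± 0.39, adjusted p = 0.000309), and Grhl3 was not called. Grhl2 was higher in UGE by 0.98 ± 0.14, which passed the p threshold (adjusted p = 2.17e-05) but not 2-fold. Tfcp2l1 was higher in UGE than in UGM (2.21 ± 0.31, adjusted p = 0.000116) and was not called in the skin, and Tfcp2 and Ubp1, which most cell types use, were not called in either.

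Among the ETS factors Ehf, a relative of Elf3 and Elf5, was also highest in UGE. Ehf averaged 10.44 ± 0.44 in UGE (SD, n = 6), 4.52 ± 0.95 in UGM (n = 5), 6.76 ± 1.09 in epidermis (n = 4) and 4.57 ± 0.70 in dermis (n = 4). It exceeded UGM by 5.92 ± 0.38 in UGE (adjusted p = 1.14e-07) and lay 3.67 ± 0.47 above epidermis there (adjusted p = 4.63e-06). Ehf was also called higher in epidermis than in dermis (2.19 ± 0.52, adjusted p = 0.00798) and in the interaction (3.73 ± 0.68, adjusted p = 0.000459). Its UGM and dermis means lay below the lower quartile of the arrays. Elf1 was called in both sites (2.34 ± 0.28 and 1.10 ± 0.21), and Elf2, Elf4 and Spdef in neither.

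In the AP-2 family Tfap2e was high in the skin, and Tfap2b was lowest in UGE. Tfap2b averaged 6.50 ± 0.31 in UGE (SD, n = 6), against 9.11 ± 0.30 in UGM (n = 5), and 10.87 ± 0.43 in epidermis, against 9.79 ± 0.30 in dermis (n = 4 each). It was called lower in UGE than in UGM (-2.61 ± 0.17, adjusted p = 1.44e-07) but higher in epidermis than in dermis (1.08 ± 0.22, adjusted p = 0.00378), with an interaction of -3.69 ± 0.29 (adjusted p = 2.22e-08). Between UGM and dermis it was not called (-0.68 ± 0.21, adjusted p = 0.0162). Tfap2e was higher in epidermis than in dermis by 1.88 ± 0.28 (adjusted p = 0.000558) and lay at 4.36 ± 0.11 in UGE and 4.33 ± 0.25 in UGM, below the lower quartile of the arrays. Tfap2d was not called in either site.

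Of the 16 Krüppel-like factors measured, 3 were called higher and 3 lower in UGE than in UGM. Besides Klf5, the higher ones were Klf3 (1.41) and Klf10 (1.66), and the lower ones were Klf2 (-2.73), a factor of endothelium and lymphocytes, Klf12 (-2.67) and Klf14 (-1.02). In the skin Klf3 (1.18) and Klf15 (1.02) were higher in epidermis beside Klf4 and Klf5, and Klf2 (-1.87), Klf9 (-1.58) and Klf14 (-1.40) were lower. Klf9 was not called in the urogenital sinus (0.49), and its interaction was 2.07. Of 10 endothelial genes 9 were lower in UGE than in UGM (median -2.58) and 10 in epidermis than in dermis (median -2.84), as Klf2 was, and their part in it was not tested. Of the p53 family Trp73 was not called between compartments, and of the Ripk kinases Ripk3, which acts in necroptosis, was lower in epidermis than in dermis (-1.90). Trp53, Ripk1, Ripk2 and Klf8 were not analysed here.

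**Figure D5:**
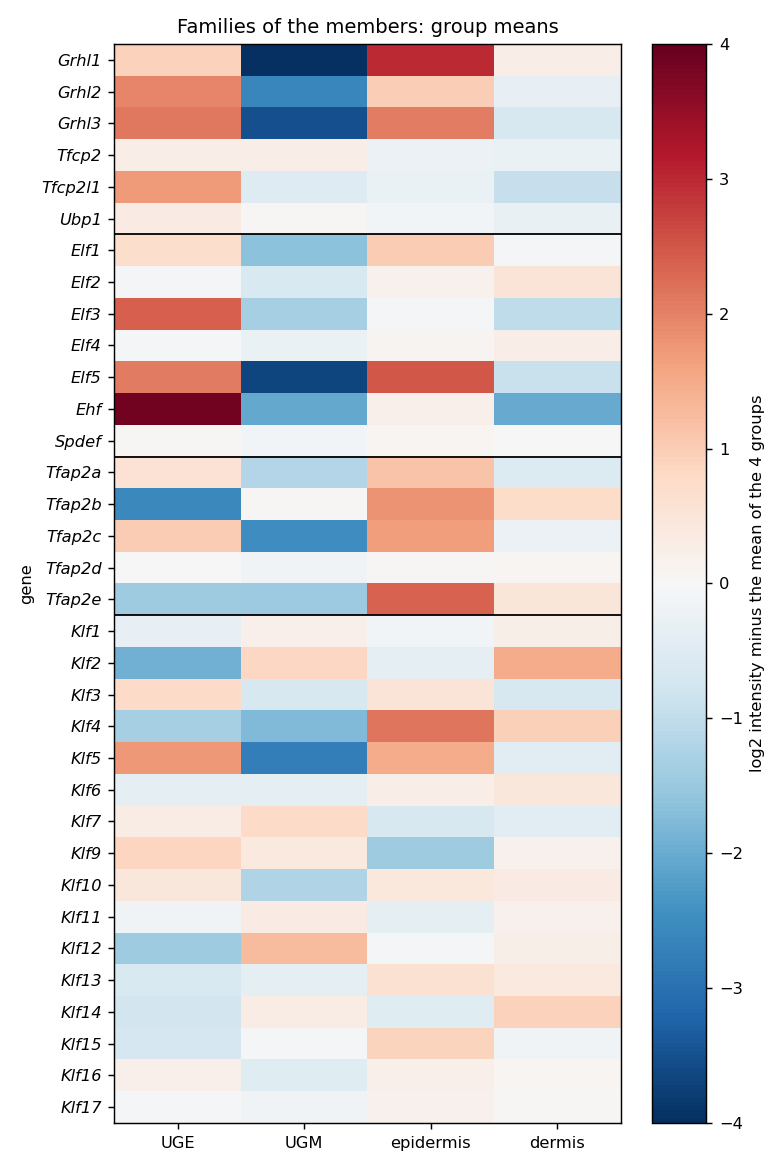
Group means of the Grainyhead, ETS, AP-2 and Krüppel-like genes in UGE, UGM, epidermis and dermis (columns), each as log2 intensity minus the mean of the 4 groups (colour scale). The Grhl genes, Elf5 and Klf5 were lowest in UGM, and Ehf and Elf3 were high in UGE. Tfap2e and Klf4 were high in the skin, and Tfap2b was lowest in UGE.

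Other transcription factors of stratified epithelium, drawn from a list of 19 of which 17 were measured, were counted in the same way. In UGE 11 were called higher and 2 lower than in UGM, with a list median of 2.17, and in epidermis 7 were higher and 1 lower than in dermis, with a median of 0.93. The largest rises in UGE were Ovol1 (3.67), Hopx (3.27) and Zfp750 (3.19). In epidermis Ovol1 (2.94), Foxn1 (2.66), a factor of keratinocyte differentiation, and Zfp750 (2.62) led. Those against the list were Maf (-3.07 in the urogenital sinus, -1.98 in the skin) and Prdm1 (-2.34 in the urogenital sinus). Maf is also known from macrophages, whose genes had a median over 10 genes of -1.17 for UGE minus UGM and -2.76 for epidermis minus dermis, and their part in it was not tested. Between the epithelia 9 of the 17 were lower in UGE than in epidermis, among them Pou3f1 (-2.36), Cebpa (-2.26) and Foxn1 (-2.07), and 1 was higher, the homeobox gene Msx2 (2.80).

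Genes known as p63 targets in keratinocytes were then set beside Trp63, 21 of a list of 23 being measured. In UGE 16 were called higher than in UGM and none lower (median 2.55), and in epidermis 9 were higher than in dermis and none lower (median 0.85). The widest steps in the urogenital sinus were those of the desmosomal gene Perp (6.00), Krt5 (5.60) and Krt14 (5.49), and of the hemidesmosomal Col17a1 (5.19). In the skin they were Zfp750 (2.62), Evpl (2.24) and Cldn1 (2.08), whereas the 2 keratins were not called there. In the interaction 11 were called higher and 1 lower, the tight-junction gene Cldn1 (-2.34), which was not called in the urogenital sinus (-0.26). Between the stromal layers 14 of the 21 were lower in UGM than in dermis. Zfp750, Bnc1 and Dlx3 stand in both lists, and Krt5 and Krt14 also among the basal keratins.

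The genes whose log2 intensity followed each regulator most closely over the 19 pools are given as a description, since the pools fall into 4 tissues and the correlation mostly repeats their order. Trp63 was nearest to Perp (r = 0.994), Dsp (r = 0.993) and Anxa4 (r = 0.983). Ripk4 was nearest to Cdh1 (r = 0.997), Kdf1 and Plek2, and Klf5 to Gm16136 (r = 0.994), Cldn23 and AI661453. For Grhl3 they were Cldn23 (r = 0.993), Liph and Prom2. Klf4 was nearest to Fabp5 (r = 0.989), Sbsn and Serpinb7, and Elf3 to Prr15l (r = 0.991), Smim22 and Gm13648. Elf5 went with Ezr (r = 0.995), Nipal1 and Stap2. Tfap2a went with Cobl (r = 0.977), Acvr1b and Eps8l2, and Tfap2c with Smagp (r = 0.994), Plaat3 and S100a16. Among the 9 regulators themselves the closest were Klf5 and Grhl3 (r = 0.993), and the farthest apart Klf4 and Elf3 (r = -0.22).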

How the data were processed

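RNA of 6 UGE, 5 UGM, 4 epidermis and 4 dermis pools was read on MOE430 2.0 arrays. The deposited values are linear intensity per probe set, normalized between arrays by the authors. Of GCOS 1.4, MAS5 and PLIER, all named in the methods, the one behind the table could not be told. The table spans 7.40 to 33140.7 and detection calls were not used here. From the deposited intensity log2 was taken without another normalization. Among 45101 probe sets the 64 controls were dropped, and the 41549 over 20 in at least 1 sample were tested. GEO's platform annotation gave 1 symbol to 34945 probe sets, several to 932 and none to 9160. Probe sets ending in _s_at may share probes with other transcripts.

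Each site had its own 2-group fit (UGE minus UGM, epidermis minus dermis), and the interaction and the comparisons between sites came from 1 fit of all 4 groups (limma 3.58.1, lmFit and eBayes, R 4.3.3, 2-sided, Benjamini-Hochberg over all tested probe sets). Fits were tested on simulated data. Lists are described by counts and medians. The members, the lists and the rule for named genes (the 9 regulators, their families, up to 3 called genes with the largest change of each list and comparison, with those against the list) were chosen with earlier results of these data known. Pou3f1, Cebpa, Foxn1 and Msx2 between the epithelia, and Col17a1, were named after their values were seen. Promoter windows are RefSeq's, build GRCm38.p6.

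For the 4 replicate numbers of the skin, deviations of epidermis and dermis from their group means correlated at r = 0.343, 0.108, 0.264 and 0.168. Epidermis replicates 1, 3 and 4 were closest to the dermis pool of their own number. Epidermis replicate 2 was closer to dermis replicate 3 (r = 0.299), so the numbers were not shown to pair all the samples. The numbers of UGE and UGM gave r from -0.41 to 0.65 and were not shown to pair samples either. The main fits used no pairing, and the replicate number entered only as a block in an alternative run. Alternatives were quantile normalization, 50 added before log2, no filter, eBayes with trend and robust, limma's treat, the mean of a gene's probe sets, the replicate block, the methods' t-test, 1 fit of all groups, each replicate left out in turn, and pairs left out together (UGE 2 and 3, UGM 2 with dermis 1, and, chosen after seeing the data, UGE 5 and 6). Nothing says that pools were of separate litters, so p-values measure the spread between pools. In the fit of all 4 groups that spread is taken over all groups, also where only 2 of them are compared.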

Additional observations from a re-analysis of the deposited data

Results flagged for a closer look

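In UGE, replicate 1 lay apart from the other pools for Tfap2c, at 10.68 on the log2 scale with the next pool at 10.98, a gap of 0.714 of the range of the group. It was the 1 such pool in 36 combinations of gene and group examined, where chance alone gives about 1 in 20.

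The difference between epithelium and mesenchyme was itself different between the urogenital sinus and the skin for 7 regulators, by limma's interaction test with Benjamini-Hochberg adjustment. It was larger in the urogenital sinus by 5.04 ± 0.48 for Trp63, 4.55 ± 0.48 for Ripk4, 2.60 ± 0.32 for Klf5, 2.96 ± 0.46 for Grhl3, 2.79 ± 0.25 for Elf3, 2.37 ± 0.52 for Elf5 and 1.59 ± 0.31 for Tfap2c on the log2 scale (SE). For Trp63 the interaction was 1.20 ± 0.49 on probe set 1459581_at (adjusted p = 0.106, not called), and for Tfap2c it was not called on 2 further probe sets. The epithelial identity genes had a median interaction of 2.59, and their part in these values was not tested.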

How the results depend on the processing

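No called result changed direction in any alternative run. The Tfap2a interaction, not called at 0.03, ran from -0.22 with the mean of probe sets to 0.25 without dermis replicate 2, and was called in none of its alternatives. For UGE minus UGM, 8 of the 9 regulators were called higher in every alternative run. For epidermis minus dermis the count of 8 became 1 with limma's treat (Elf5) and 4 with the methods' t-test, which lost Trp63, Ripk4, Klf4 and Grhl3, and it was 7 with all 4 groups in 1 fit, which lost Trp63 (adjusted p = 0.0148). In treat the fold threshold is part of the test itself. With a gene read as the mean of its probe sets, 2 regulators in place of 1 were lower in UGE than in epidermis, Tfap2c being added (-1.04). Leaving out 1 pool at a time gave 8 to 8 calls for UGE minus UGM, 7 to 9 for epidermis minus dermis, 7 to 7 in the interaction, 1 to 1 in each direction for UGE minus epidermis and 7 to 7 for UGM minus dermis.

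In the interaction the count of 7 became 6 with 50 added before log2 (Elf5 at 1.51) and 6 with the replicate block (Elf5 at 2.33), and 5 with treat and with the mean of probe sets, both without Elf5 and Tfap2c. The mean of probe sets moved Trp63 to 2.75 for UGE minus UGM, to 1.57 in the interaction and to -2.01 for UGM minus dermis. The replicate block changed no other call of a regulator, and could not be fitted to UGE minus epidermis and UGM minus dermis because each number lies within 1 site. In neither site were the numbers shown to pair the samples.

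Counts over all probe sets moved more. They were 5506 for UGE minus UGM and 2524 with treat, 5681 for epidermis minus dermis, 3686 with 50 added and 1434 with treat, and 3870 for the interaction and 1083 with treat. For UGE minus epidermis they were 4984, 3296 with 50 added and 1685 with treat, and for UGM minus dermis 5049, 3140 with 50 added and 1627 with treat. Levels of Trp63, Grhl3 and Elf5 in UGM lay near the lower quartile of the arrays, so their fold changes rest on dim signals there. With 50 added, UGE minus UGM was 5.11 for Trp63, 4.58 for Grhl3 and 4.63 for Elf5.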
